A study of Mus musculus with 9 samples.

Results

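Neonatal cardiac fibroblasts that had received the reprogramming factors Mef2c, Gata4 and Tbx5 together with the compound TMP269 were compared with fibroblasts that had received a virus for DsRed. The comparison takes the 3 libraries labelled MGT with TMP269 and the 3 labelled DsRed, 6 of the 9 libraries of the series, over all gene symbols of the deposited table. RNA was sequenced 14 days after infection, and the values are TPM, length-corrected shares of transcripts scaled to a common total.

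All cells were wild-type (WT) neonatal mouse cardiac fibroblasts, infected 24 h after seeding and kept in induction medium with serum. The MGT with TMP269 group received the MGT virus and then medium with TMP269, an inhibitor of class IIa histone deacetylases, which the labels call an HDAC4 inhibitor. Its concentration is not given in the sources used here. In the negative control group the virus encoded the red fluorescent protein DsRed, and no compound is named for it. A group of 3 libraries with the MGT virus alone is used beside them. No group with the DsRed virus and TMP269 was analysed here, so what MGT and what TMP269 contributed to the difference from DsRed cannot be told apart within this comparison, while the difference from MGT tests the added compound. The replicates are labelled as biological, with no cultures or animals named. P-values therefore set a group difference against the spread among these libraries, which may be technical variation.

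MEF2C, GATA4 and TBX5 are transcription factors of the embryonic heart that together activate sarcomere, calcium-handling and hormone genes, and their forced expression in fibroblasts is used to produce cardiomyocyte-like cells. Class IIa deacetylases (HDAC4, HDAC5, HDAC7 and HDAC9) bind MEF2 proteins and hold MEF2 target genes down, and leave the nucleus bound to 14-3-3 proteins once phosphorylated. Cardiac fibroblasts secrete the collagens, elastic fibres and proteoglycans of the heart's matrix, and their cultures from neonatal hearts can also hold macrophages and other stromal cells.

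The promoters of 4 genes are shown because the delivered factors, or the interferon-regulated factors of the genes that fell, have known recognition motifs. Each window runs from 250 bases before to 50 bases after the annotated start, 5′ to 3′ on the gene's strand, from RefSeq on GRCm38.p6. Capitals mark motif matches.
Mybpc3, cardiac myosin-binding protein C, chr2:91117894-91118193, + strand: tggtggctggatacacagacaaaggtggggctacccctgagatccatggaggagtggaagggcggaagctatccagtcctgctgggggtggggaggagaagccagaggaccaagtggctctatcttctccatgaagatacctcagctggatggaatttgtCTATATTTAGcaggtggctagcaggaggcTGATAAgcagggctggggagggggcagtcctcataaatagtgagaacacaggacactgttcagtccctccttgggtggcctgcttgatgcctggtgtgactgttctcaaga
Synpo2l, a Z-disc protein, chr14:20668305-20668604, − strand, the first of 2 windows of the gene: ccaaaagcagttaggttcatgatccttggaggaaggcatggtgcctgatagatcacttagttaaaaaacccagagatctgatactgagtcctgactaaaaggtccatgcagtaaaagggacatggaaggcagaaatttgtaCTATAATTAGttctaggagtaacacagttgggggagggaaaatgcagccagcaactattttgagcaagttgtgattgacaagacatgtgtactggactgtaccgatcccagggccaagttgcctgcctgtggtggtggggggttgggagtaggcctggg
Nppa, atrial natriuretic peptide, chr4:148000472-148000771, + strand: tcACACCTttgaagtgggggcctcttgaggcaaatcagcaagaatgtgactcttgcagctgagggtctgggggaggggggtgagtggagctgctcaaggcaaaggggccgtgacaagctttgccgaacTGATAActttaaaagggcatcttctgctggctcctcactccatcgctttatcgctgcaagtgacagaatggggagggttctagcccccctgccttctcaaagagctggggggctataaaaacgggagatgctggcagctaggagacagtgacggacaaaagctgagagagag
Isg15, an interferon-induced ubiquitin-like modifier, chr4:156200769-156201068, − strand: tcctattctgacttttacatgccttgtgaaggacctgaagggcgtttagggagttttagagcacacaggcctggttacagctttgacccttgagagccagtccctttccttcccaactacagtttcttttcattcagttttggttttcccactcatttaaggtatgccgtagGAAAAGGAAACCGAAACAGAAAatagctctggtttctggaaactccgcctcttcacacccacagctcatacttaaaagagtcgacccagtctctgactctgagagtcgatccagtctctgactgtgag
The Mybpc3 window holds the MEF2 motif CTANNNNTAG, with its first base at position −90 from the start, and the GATA motif TGATAA at −61. In Synpo2l the MEF2 motif lies at −109. The Nppa window holds TGATAA at −122 and the T-box motif AGGTGT on the opposite strand at −248. In Isg15 the interferon-response motif GAAANNGAAA occurs 3 times, at −78, −72 and −66, with each match overlapping its neighbour.

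Both strands of all 32851 RefSeq promoter windows were searched for 5 motifs. CTANNNNTAG was present in 9 of the 36 windows (25%) that could be found for the sarcomere, Z-disc and M-band genes called higher below, and in 3.69% of all windows. Windows were found for 29 of 36 such genes. GATA and T-box motifs stood closer to their shares of all windows. AGATAA was in 5 of the 36 against 11.2% of all windows, TGATAA in 2 against 9.05%, and AGGTGT in 4 against 13.7%. GAAANNGAAA was present in 6 of the 10 windows of interferon-response genes called lower, against 3.44% of all windows, and 9 of 14 such genes had a window. A match describes these letters in this window only. Both gene lists were chosen by function, and members that were not called were not compared. The shares therefore say nothing about why genes were called.

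Replicates of MGT with TMP269 were alike, with Pearson's r across genes between 0.978 and 0.979, while DsRed replicate 2 was unlike the rest of its group. Its r with replicates 1 and 3 was 0.942 to 0.943, against 0.973 between those 2. An upper-quartile TPM of 5.36 compared with 8.66 to 9.54 elsewhere, and the 3268 genes with transcripts of at least 2393 bases had a median TPM of 5.69 compared with 10.3 to 12.1. Between 12352 and 13253 genes per library reached 1 TPM, and depth is unknown with this unit. The fibroblast label was borne out in the DsRed cells by Col1a1 (3131, 1520.0 and 3469.7 TPM in replicates 1, 2 and 3), Vim (3922, 4230.0 and 4029) and Dcn (621, 472 and 640.4). The cardiomyocyte markers Myl2, Myl3, Mybpc3 and Tnnt2 averaged 0.589, 0.0895, 0.474 and 199.7 TPM there. Further such markers, Ryr2, Myh6, Actc1, Myl7 and Myl4, averaged 0.565, 2.74, 5.25, 12.4 and 73.3 TPM in DsRed.

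Adjusted p-values are limma's, adjusted by Benjamini-Hochberg across the 13228 genes that were tested, and genes under 0.05 are those called. Of these genes 3016 were called (22.8%). Higher in MGT with TMP269 were 1950 (14.7%) and lower 1066 (8.06%), with at least a 2-fold difference on the log2(TPM + 1) scale in 928 and 693 of them. Without DsRed replicate 2, 4848 genes were called (36.6%), 2826 higher (21.4%) and 2022 lower (15.3%). The same direction was called with and without that library for 2928 genes, 88 lost their call, 1920 gained one and 0 changed direction. The values of the groups did not overlap for 5547 genes (41.9%), and for 7641 (57.8%) once DsRed replicate 2 was set aside. The number of called genes was 1867, 1873 and 1865 without replicate 1, 2 or 3 of MGT with TMP269.

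The direction of small changes depended on scaling. The median log2 change of all genes was 0.22, and 0.07 without DsRed replicate 2. It was −0.01 after median-ratio scaling, which sets the typical gene to no change. Of the genes called, 64.7% were higher in MGT with TMP269, against 47.1% of those called after that scaling. After it 1549 genes were called higher and 1741 lower. Medians of gene lists are therefore given beside 0.22. Calls that scaling ended are named for some genes, not for every member of a list. After median-ratio scaling lysosomal genes, for example, went from 8 higher and 5 lower to 6 and 7. Glycolysis and glucose genes went from 7 and 3 to 5 and 5, and proteases and inhibitors from 4 and 13 to 2 and 15. Cardiac sarcomere genes stayed at 13 higher and 0 lower.

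**Figure D1:**
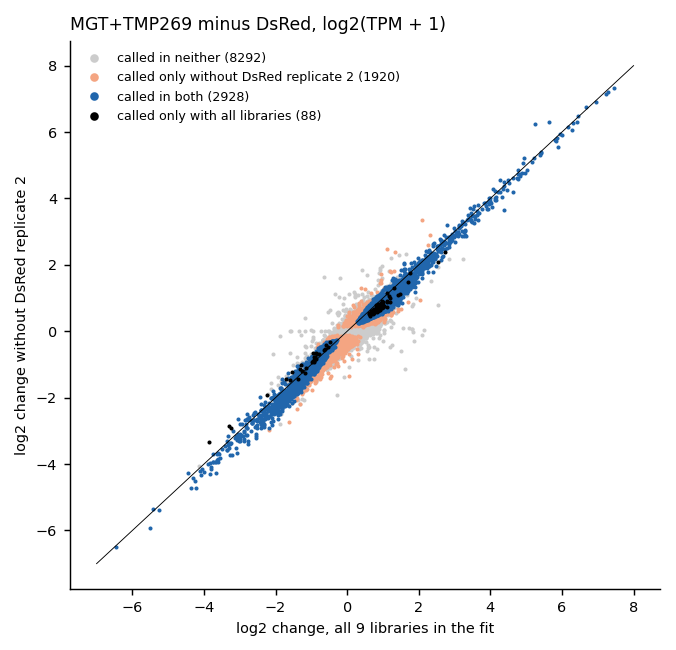
Change of every tested gene, MGT with TMP269 minus DsRed on the log2(TPM + 1) scale, with all 9 libraries in the fit (horizontal) and without DsRed replicate 2 (vertical). Blue points are the 2928 genes called in both, orange the 1920 called after that library is left out, black the 88 called with it; grey points were called in neither, and the line marks equal values.

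Csrp3, the muscle LIM protein of the Z-disc, led the 12 largest rises among genes that met the naming rule. It stood at 410.4, 395 and 415 TPM in replicates 1, 2 and 3 of MGT with TMP269 and at 1.52, 0.974 and 1.59 TPM in those of DsRed. The groups were far apart, and the log2 change was 7.44 ± 0.13 (adjusted p = 2.17e-09). Sarcolipin (Sln), an inhibitor of the sarcoplasmic reticulum calcium pump, had 419.7, 429.9 and 448 TPM against 1.33, 1.53 and 2.66. Its change was 7.28 ± 0.16 (adjusted p = 5.41e-09). The naming rule took only genes whose groups did not overlap, so that trait is no result for the genes named here. Following these were Myom2, Myl7, Myl1, Myh6, Actc1, Myl4, Smpx, Synpo2l, Mybpc3 and Rrad, with log2 changes from 7.24 for Myom2 down to 5.89 for Rrad, a small GTPase that inhibits calcium channels.

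Among the 12 largest falls was that of elastin (Eln), the core of elastic fibres, which was at 8.42, 9.73 and 10.5 TPM in MGT with TMP269 and at 764, 259 and 536 in DsRed. Every treated library was below every control, as the naming rule required. The controls were uneven, and the log2 change was −5.49 ± 0.32 (adjusted p = 2.62e-06). Ifi27l2a, an interferon-induced gene, had 2.57, 1.23 and 2.09 TPM against 322, 230.3 and 218, a log2 change of −6.45 ± 0.23 (adjusted p = 9.87e-08). Plac8 fell from a mean of 513 to 10.8 TPM, Mfap4, a microfibril-associated protein, from 217 to 4.70, and Sfrp1, a secreted Wnt inhibitor, from 160.2 to 6.43. The lymphangiogenic factor Vegfd, the stromelysin Mmp3 and Srpx had log2 changes of −4.11, −4.05 and −3.99. The other 4 were C1qa, C1qb, Ccl12 and Fcrls, which macrophages express. Ccl12 was listed at 0 in 2 of the 3 treated libraries, and its values were 0, 0 and 0.784 TPM.

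**Figure D2:**
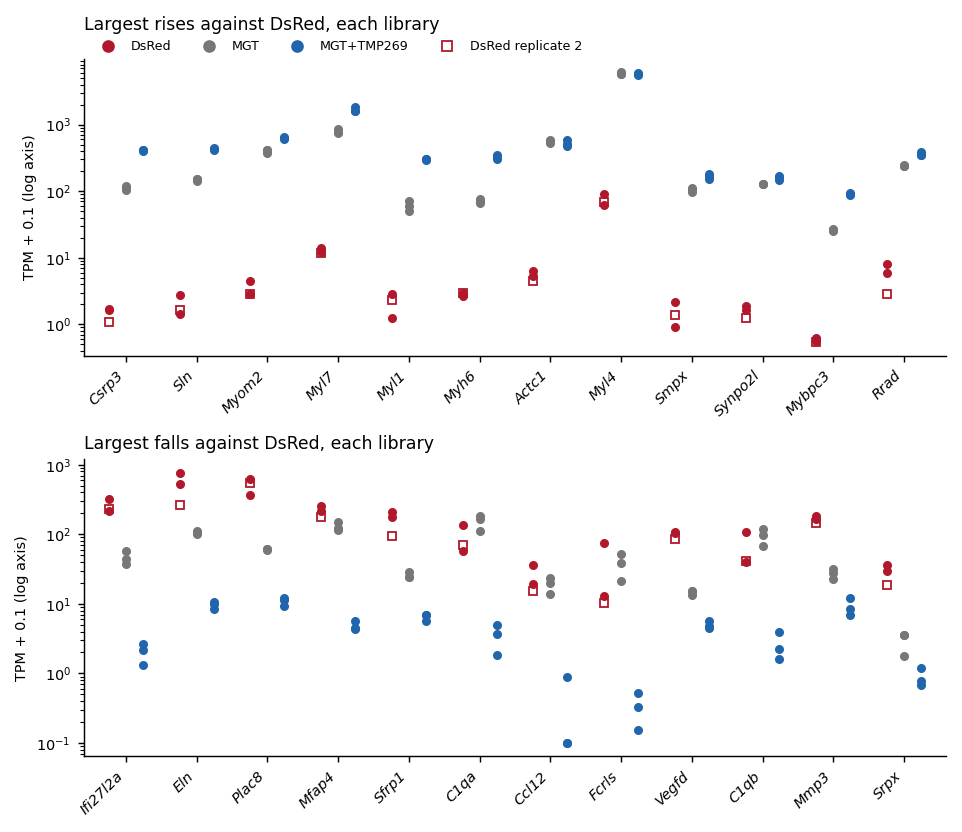
TPM + 0.1 on a log axis of the 12 largest rises (top) and falls (bottom) in each of the 9 libraries, DsRed in red with replicate 2 as an open square, MGT in grey and MGT with TMP269 in blue. The genes were chosen so that the blue and red points do not overlap.

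The delivered factors were high, as given by the virus, which checks the labels. Tbx5 was at 399.9, 407 and 447 TPM in MGT with TMP269 and at 4.50, 2.99 and 6.16 in DsRed. Mef2c was at 611, 701 and 730.2 against 7.64, 34.2 and 7.54, and DsRed replicate 2 held more of it than the other controls. Gata4, which the controls also expressed, was at 340.0, 324 and 344 against 70.7, 40.7 and 76.4 TPM. Viral and endogenous transcripts of these genes are summed under 1 symbol. Against MGT alone the factors were not called (adjusted p between 0.321 for Gata4 and 0.957 for Mef2c, with 0.764 for Tbx5). These p-values do not show equal levels. Gata4 averaged 336 ± 10.5 TPM with the compound and 256 ± 18.5 in MGT (mean ± SD). Tbx5 averaged 418 ± 25.1 and 382 ± 8.90 TPM, and Mef2c 681 ± 61.8 and 648 ± 46.5.

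Some endogenous cardiac transcription factors rose as well. Of 26 such genes listed, 14 passed the expression filter of a mean of 1 TPM over the 9 libraries, 5 were higher and 1 lower (median log2 change 0.42, against 0.22 for all genes, of which 14.7% were higher and 8.06% lower). Without DsRed replicate 2 these counts were 6 and 3, and 3 were higher without replicate 1 or replicate 3 of MGT with TMP269. Leaving out any 1 library of MGT with TMP269 took the lower count to 0. Ankrd1, a nuclear and Z-disc mechanosensor, rose to 4255 from 1312 TPM. Hopx, a homeodomain cofactor of the developing heart, went to 6.92 from 0.615, and Smarcd3, the cardiac BAF60C subunit of the SWI/SNF complex, to 103 from 49.3. The remaining genes called higher were Srf, whose call ended after median-ratio scaling or quantile normalization or without any 1 library of MGT with TMP269, and Tbx2 (4.97 against 2.49 TPM), whose call ended after removal of the length trend or without replicate 1 or 3 of MGT with TMP269. Hand2, a ventricular factor that fibroblasts also express, fell from 39.0 to 26.6 TPM. Nkx2-5, Hand1, Irx4 and Isl1 stood below the filter in every group, with Nkx2-5 at 0.597, 0.163 and 0.334 TPM in the treated libraries.

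Sarcomere genes rose together. All 13 cardiac sarcomere genes that passed the filter, of 17 listed, were higher, with and without DsRed replicate 2, at a median log2 change of 4.90. Myh6, the alpha cardiac myosin heavy chain, was at 303, 325 and 351 TPM in MGT with TMP269 and 2.52, 2.85 and 2.84 in DsRed. Its log2 change was 6.45 ± 0.12 (adjusted p = 2.17e-09). The atrial light chain Myl7 was at 1593, 1584 and 1830.3 against 12.01, 11.5 and 13.8 TPM, and the cardiac troponin T gene Tnnt2 at 5806, 5751 and 6168 against 157, 246 and 196. For neither gene did the groups overlap. Myl4, the other atrial light chain, averaged 5789 ± 216 against 73.3 ± 14.1 TPM (mean ± SD, n = 3), Actc1, cardiac alpha-actin, 531 ± 54.2 against 5.25 ± 0.951, and Mybpc3, whose promoter is shown above, 89.9 ± 3.29 against 0.474 ± 0.0424. The ventricular light chains did not share in this. Myl2 and Myl3 were below the filter, with 0, 1.45 and 0 and 0, 0.287 and 0.294 TPM in the 3 treated libraries. Myh7, the beta heavy chain, was also below it, at 0.738 against 0.0136 TPM. The summed level of the sarcomere list ran from 18615 to 19962 TPM in MGT with TMP269 and from 1874 to 2109 in DsRed. Bulk libraries cannot tell more cells of a type from more RNA per cell, here and below. Reads shared by the myosin heavy chains, or by the muscle actins, may have been divided unevenly among them.

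Of 30 listed genes of the Z-disc and M-band, 27 passed the filter and 23 were higher (24 without DsRed replicate 2), at a median log2 change of 2.85. Myom2, an M-band protein, reached 613, 639.7 and 660.1 TPM from 2.74, 2.74 and 4.37. Tcap, the titin cap, averaged 52.5 against 0.487 TPM and Actn2, sarcomeric alpha-actinin, 31.9 against 0.336 TPM. Desmin (Des) and alpha-B-crystallin (Cryab), which the controls already expressed, averaged 969.6 against 214 TPM and 3232 against 1276 TPM. Nebl, Nexn, Pdlim5 and Pdlim3 were not called. Their adjusted p-values were 0.122, 0.0517, 0.0791 and 0.199, and each was called higher without at least 1 of the DsRed libraries.

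Skeletal muscle contractile genes rose in part. Of 30 listed, 15 passed the filter and 11 were higher (10 without DsRed replicate 2). Myl1, a fast skeletal light chain, was at 307, 303 and 298 TPM against 1.14, 2.22 and 2.78. Acta1 averaged 109 against 5.89 TPM, Myh1 38.4 against 1.30 TPM and Tnnt3 43.0 against 3.14 TPM. The call of Mybph ended after removal of the length trend or without replicate 2 or 3 of MGT with TMP269, and that of Neb after median-ratio scaling or without any 1 library other than DsRed replicate 1. The myogenic regulators Myod1, Myog, Myf5, Myf6 and Pax7 were at or near 0 in both groups, with treated means of 0.0222, 0, 0, 0.0338 and 0.00636 TPM.

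Genes of sarcoplasmic reticulum calcium cycling were higher in 11 of 19 cases, of 21 listed (12 without DsRed replicate 2), with a median of 1.59. Ryr2, the cardiac calcium release channel, was at 27.5, 29.8 and 32.9 TPM in MGT with TMP269 and 1.04, 0.400 and 0.258 in DsRed. All treated libraries lay above all controls, and the log2 change was 4.34 ± 0.21 (adjusted p = 6.57e-07). Atp2a2, the calcium pump SERCA2, averaged 629.7 ± 40.8 against 126 ± 62.2 TPM, and Casq2, cardiac calsequestrin, 476 ± 32.2 against 7.38 ± 1.57. Trdn, triadin, averaged 33.2 against 2.35 TPM. Phospholamban (Pln), the other pump inhibitor, was called higher and stayed low at 3.06, 1.19 and 1.67 TPM, whereas sarcolipin was abundant. The sodium-calcium exchanger Slc8a1 averaged 30.8 against 11.5 TPM and was called once any 1 DsRed library was left out (adjusted p = 0.0528 with all libraries and 0.00107 without DsRed replicate 2).

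Of 29 ion channel genes listed, 11 passed the filter, 5 were higher and 1 lower (5 and 2 without DsRed replicate 2). Kcnj5, a subunit of the acetylcholine-activated potassium channel, averaged 12.7 against 1.64 TPM and Kcna5 4.41 against 0.284 TPM. Cacna1c, the L-type calcium channel, averaged 7.48 against 3.72 TPM, and its call ended after removal of the length trend or without replicate 1 or 3 of MGT with TMP269 or DsRed replicate 1. At cell junctions, 12 of 13 intercalated disc genes above the filter, of 16 listed, were higher with and without DsRed replicate 2, and Gjc1 was not called. Desmoplakin (Dsp) was at 50.7, 59.2 and 64.4 against 1.06, 0.672 and 1.24 TPM. Gja1, the ventricular connexin 43, averaged 85.3 against 22.3 TPM and Cdh2, N-cadherin, 280.3 against 94.5 TPM.

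Natriuretic peptides stood high in MGT with TMP269. Nppa was at 362, 366 and 437 TPM in its 3 libraries and at 1.55, 39.0 and 9.49 in DsRed. The controls were uneven, with DsRed replicate 2 the highest, and no treated library came near them. The log2 change was 5.25 ± 0.76 (adjusted p = 0.00103), and 6.23 ± 0.48 without that library. Nppb, brain natriuretic peptide, was at 41.0, 32.8 and 42.2 against 1.38, 1.02 and 0.958 TPM. Corin, the protease that activates pro-ANP, averaged 9.37 against 0.0897 TPM, and Npr2, the receptor of the C-type peptide, 108 against 52.1 TPM. The clearance receptor Npr3 fell to 11.8 from 30.3 TPM. Of 8 genes listed, 6 passed the filter, 4 were higher and 1 lower, and Furin was called higher without DsRed replicate 2 or 3 (adjusted p = 0.0673 with all libraries).

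**Figure D3:**
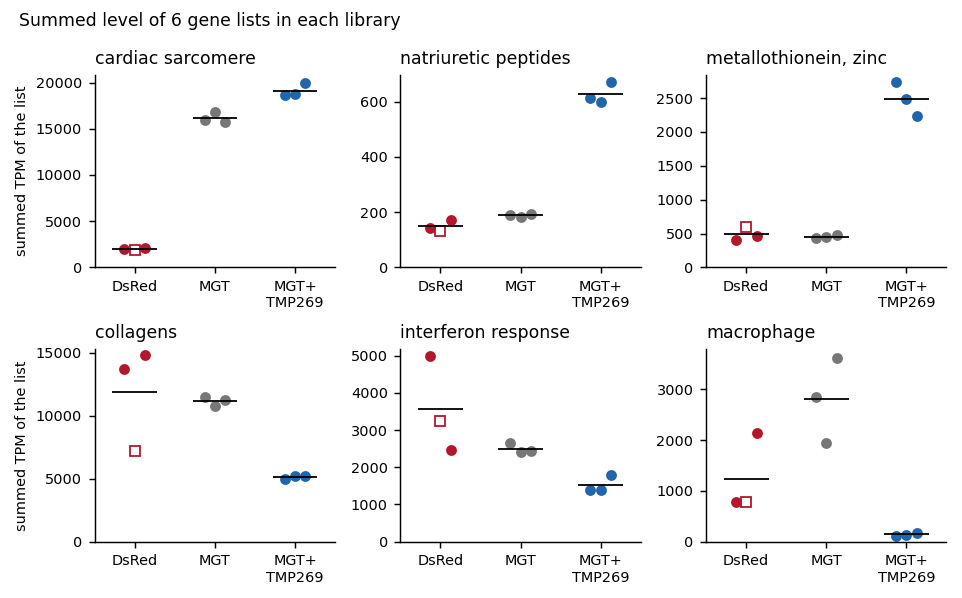
Summed TPM of 6 gene lists in each library, DsRed in red with replicate 2 as an open square, MGT in grey, MGT with TMP269 in blue, and the group mean as a line. MGT with TMP269 lies above both other groups for the cardiac sarcomere, natriuretic and metallothionein lists. It lies below both for collagens, interferon response and macrophage markers.

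Of the class IIa deacetylases that TMP269 inhibits, Hdac5 and Hdac9 had higher transcript levels. Hdac5 was at 135, 132 and 140.4 TPM in MGT with TMP269 and 56.7, 98.1 and 66.3 in DsRed, a log2 change of 0.91 ± 0.20 (adjusted p = 0.00961). That call ended after median-ratio scaling. Hdac9 was at 8.61, 9.15 and 8.54 against 1.43, 0.386 and 2.57 TPM, a change of 2.09 ± 0.30 (adjusted p = 0.00106). Hdac4 averaged 10.2 against 7.75 TPM and Hdac7 43.5 against 43.0 TPM, and neither was called (adjusted p = 0.309 and 0.933). Of 18 other deacetylases and corepressors, all above the filter, 3 were higher (Hdac6, Hdac11 and the BCL6 corepressor Bcor) and Hdac2 lower. That is near the shares of all genes, of which 14.7% were higher and 8.06% lower. The median was 0.28, beside 0.22 for all genes. Without DsRed replicate 2 the counts were 5 and 2. Without any 1 library of MGT with TMP269, 1 was higher and 0 lower, and Hdac2 also lost its call without DsRed replicate 1. Of the 7 genes for 14-3-3 proteins, 0 were called with limma in the fit of all libraries, 1 was (Ywhab, lower) without DsRed replicate 2, and their median of 0.19 turned to −0.07 after median-ratio scaling.

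Of 19 listed genes known to respond to MEF2 or calcineurin, 14 passed the filter and 5 were higher (6 higher and 3 lower without DsRed replicate 2). The median was 0.15, below that of all genes, and turned negative after 3 rescalings, with −0.10 after median-ratio scaling. Pgam2, the muscle phosphoglycerate mutase, was at 195, 211 and 208 against 10.7, 21.8 and 20.6 TPM, and Myoz2, a calcineurin-binding Z-disc protein, averaged 54.0 against 2.05 TPM. Rcan1, an inhibitor of calcineurin that calcineurin signalling induces, was at 75.7, 62.3 and 72.3 TPM against 29.5, 29.1 and 36.6, and at 232, 231 and 244 in MGT alone. It was called higher than in DsRed (adjusted p = 2.15e-04) and lower than in MGT (adjusted p = 6.41e-05). Klf4 and Nfatc1 averaged 38.0 against 15.4 TPM and 9.87 against 4.55 TPM, and the call of Nfatc1 ended without replicate 3 of MGT with TMP269.

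Fibroblast identity genes fell in most cases. Of 24 listed, 23 passed the filter, 15 were lower and 3 higher (17 and 5 without DsRed replicate 2), at a median of −1.12. Tcf21, a transcription factor of cardiac fibroblasts, was at 133, 129 and 135 TPM in MGT with TMP269 and 439, 481 and 526 in DsRed. Pdgfra, the PDGF receptor alpha, fell to a mean of 4.04 from 27.3 TPM, matrix Gla protein (Mgp) to 155 from 1576, and Dpep1 to 7.13 from 107. Vim, the intermediate filament of mesenchymal cells, stayed abundant at 4274, 4458 and 4374 against 3922, 4230.0 and 4029 TPM and was not called (adjusted p = 0.346; 0.0220 without DsRed replicate 2, when it was called higher). Thy1, Tbx18 and Scara5 rose, with means of 365 against 202 TPM, 77.7 against 18.4 TPM and 1.91 against 0.218 TPM.

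Collagens fell with them, 14 of 22 lower (17 without DsRed replicate 2) at a median of −1.13. Col3a1, a fibrillar collagen, was at 172, 200.4 and 237 TPM in MGT with TMP269 and 2998, 1682 and 3270.4 in DsRed. DsRed replicate 2 was the lowest control and still several times above the treated libraries, and the log2 change was −3.65 ± 0.24 (adjusted p = 5.10e-06). The chains of collagen I averaged 1111 against 2707 TPM for Col1a1 and 351 against 1894 TPM for Col1a2. The basement membrane chains Col4a1 and Col4a2 averaged 1394 against 1210.5 TPM and 781 against 647 TPM and were not called (adjusted p = 0.440 and 0.369). Col10a1, the collagen of hypertrophic cartilage, went the other way, at 51.5, 51.0 and 50.4 TPM against 0.898, 0.541 and 1.14. The summed level of the collagens ran from 4972 to 5219 TPM in MGT with TMP269, and in DsRed from 7179 in replicate 2 to 14833.

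Elastic fibre and crosslinking genes fell in 17 of 27 cases above the filter (23 without DsRed replicate 2), of 28 listed, at a median of −1.12. Beside Eln and Mfap4, Mfap2 averaged 2.30 against 20.1 TPM and the lysyl oxidase Loxl1 91.6 against 298 TPM. Ltbp1, which binds latent TGF-beta, was called higher, at 83.5 against 26.5 TPM, with 2 genes higher without DsRed replicate 1 or 2. Proteoglycans were lower in 6 of 9 (9 without DsRed replicate 2), of 12 listed, with a median of −1.82. Biglycan (Bgn) averaged 2154 against 5491 TPM and asporin (Aspn) 2.62 against 52.4 TPM. Matricellular proteins were lower in 10 of 16 (13 without DsRed replicate 2), of 17 listed. Periostin (Postn), a mark of activated fibroblasts, was at 102, 103 and 94.2 against 999, 530.3 and 800.3 TPM, and tenascin C (Tnc) averaged 10.9 against 125 TPM. Ctgf, Wisp2 and Thbs4 were higher. Their count of 3 was 1 after median-ratio scaling or without any 1 library of MGT with TMP269.

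Matrix proteases and their inhibitors were lower in 13 and higher in 4 of 21, of 23 listed (15 and 4 without DsRed replicate 2). The gelatinase Mmp2 was at 57.6, 64.6 and 67.8 TPM against 586, 719.9 and 682, and the inhibitor Timp3 at 212, 224 and 254 against 2280.1, 1007 and 2134. The treated libraries lay below the controls for both. Timp1 averaged 271 against 1344 TPM, while Timp2 averaged 1807 against 1542 TPM and was not called (adjusted p = 0.203). Adamts8, Mmp11 and the protease inhibitor Serpine2 were among the higher genes. The call of Mmp11 ended under every rescaling tried and without any 1 library other than DsRed replicate 2, and 2 genes of the list were higher without any 1 library of MGT with TMP269.

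Smooth muscle and myofibroblast genes divided. Of 15 listed, 14 passed the filter, 6 were lower and 2 higher (7 and 3 without DsRed replicate 2), the latter being desmin and phospholamban, which cardiac muscle shares. Without DsRed replicate 3, 4 were higher. Calponin (Cnn1) was at 21.3, 18.4 and 23.8 against 343, 201 and 302 TPM, and Actg2, the enteric smooth muscle actin, averaged 8.11 against 103 TPM. Acta2, alpha-smooth muscle actin and the usual mark of myofibroblasts, was at 2538, 2517 and 2452 against 2849, 2787 and 3011 TPM. Each treated library lay slightly below each control, and the gene was not called against DsRed (adjusted p = 0.0863; 0.00240 without DsRed replicate 2, when it was called lower).

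In the TGF-beta and BMP pathways, in which secreted ligands act through receptor kinases and SMAD proteins, genes changed in both directions. Tgfb2 averaged 112 against 56.6 TPM, Tgfb3 428 against 134 TPM and the receptor Tgfbr1 31.4 against 11.8 TPM, all called higher, as was the BMP antagonist Nog. The BMP target genes Id1, Id2, Id3 and Id4 were lower, and Id1 was at 25.1, 23.3 and 26.3 TPM against 150.0, 217 and 176. The ligand Bmp4 averaged 8.00 against 43.1 TPM and Gdf6 109 against 479 TPM. Of 28 genes listed, 24 passed the filter, 4 were higher and 7 lower. The counts were 5 and 14 without DsRed replicate 2.

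**Figure D4:**
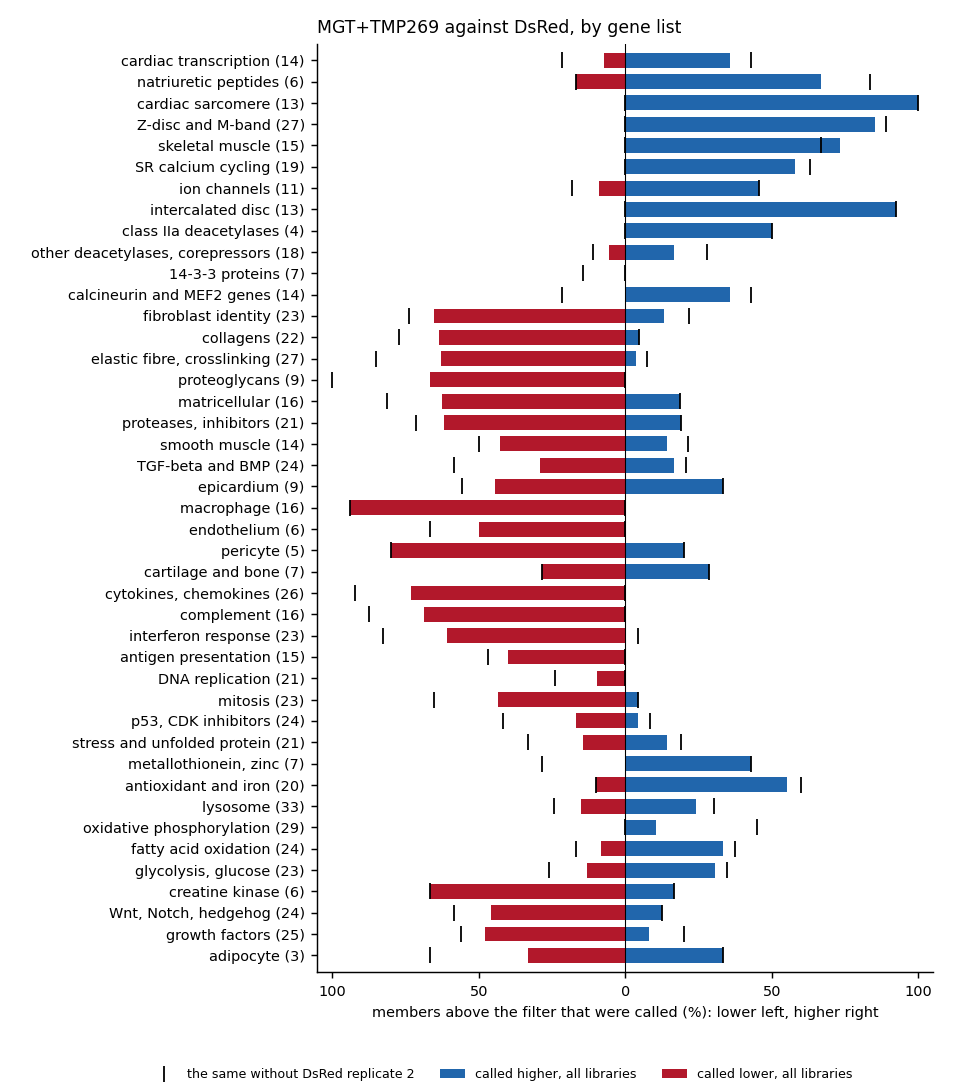
Share of each list's members above the filter (their number in brackets) that were called lower (red, to the left) or higher (blue, to the right) in MGT with TMP269 against DsRed, in percent. Black ticks give the share without DsRed replicate 2; of all genes tested, 8.06% were called lower and 14.7% higher.

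Macrophage markers were low in MGT with TMP269. Of 16 markers, all above the filter, 15 were lower with and without DsRed replicate 2, at a median of −2.42. The count was 11, 12 and 11 without replicate 1, 2 or 3 of MGT with TMP269. It was 13 without DsRed replicate 1 and 14 without DsRed replicate 3. Lyz2, lysozyme, was at 66.2, 77.3 and 100.1 TPM against 451, 449.9 and 1310.5, and the complement gene C1qa at 1.75, 3.59 and 4.86 against 57.7, 70.5 and 137. DsRed replicate 3 held more of both than the other controls. Cd68 averaged 14.1 against 29.6 TPM and was not called (adjusted p = 0.239). The summed level of the markers ran from 114 to 173 TPM in MGT with TMP269, from 778 to 2134 in DsRed and from 1945 to 3619.6 in MGT. Against MGT 16 of 16 were lower.

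Markers of further cell types were measured as well. Endothelial markers summed to 9.95 to 12.3 TPM in MGT with TMP269 and 29.4 to 33.1 in DsRed, and 3 of 6 above the filter, of 10 listed, were lower (Pecam1, Emcn and Egfl7). Without replicate 2 or 3 of MGT with TMP269, 2 were. Of pericyte markers 4 of 5, of 7 listed, were lower, with Rgs5 at 0.630 against 11.9 TPM, and Cspg4 was higher at 17.96 against 2.56 TPM. Their count fell to 2 without replicate 2 or 3 of MGT with TMP269 or without DsRed replicate 1. Epicardial and mesothelial markers were split. Msln, mesothelin, was at 254, 239 and 256 against 22.7, 26.9 and 32.2 TPM, and Upk1b and Tbx18 were higher too, while Upk3b, Gpm6a, Lrrn4 and Aldh1a2 were lower. Those 4 lower of 9 above the filter, of 11 listed, were 2 when any 1 library other than DsRed replicate 2 was left out. Pparg, a nuclear receptor of adipocytes, rose to 18.2 from 3.21 TPM, Fabp4 fell to 3.18 from 10.7, and 4 of the 7 adipocyte markers, Adipoq among them, were below the filter. Lpl, the remaining adipocyte marker, averaged 28.1 against 41.3 TPM and was called lower without DsRed replicate 2. Of 14 cartilage and bone genes, 7 passed the filter, with Col10a1 and the delivered Mef2c higher and Sox9 and Acan lower, with and without that library. The 6 Schwann cell and neural crest markers and the 4 T and B cell markers were all below it.

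Of 34 cytokines, chemokines and related genes, 26 passed the filter and 19 were lower (24 without DsRed replicate 2), with 0 higher in limma's test in either fit, at a median of −1.29. The stromal chemokine Cxcl12 was at 187, 191 and 198 TPM against 1146, 639 and 900.3, and the acute-phase gene Saa3 at 92.9, 86.0 and 113 against 457, 824 and 811. All treated libraries were below all controls for both. Ccl2, a monocyte attractant, averaged 326 against 579.8 TPM and Cxcl5, a neutrophil attractant, 1.70 against 25.9 TPM. Il6 averaged 84.6 against 113 TPM and was not called with all libraries (adjusted p = 0.118; 0.0283 without DsRed replicate 2, when it was called lower). Of 18 complement genes, 16 passed the filter and 11 were lower (14 without DsRed replicate 2). Beside the macrophage-expressed C1q chains these included C3, the central complement component, at 31.9, 34.3 and 32.0 against 127, 113 and 171 TPM. The macrophage markers moved in the same direction as these genes, and their part in the result was not tested.

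Interferon-response genes were lower in 14 of 23, of 24 listed, at a median of −1.52. Without DsRed replicate 2 the count was 19, and without replicate 1 of MGT with TMP269 it was 8. Isg15, whose promoter is shown above, was at 81.2, 93.4 and 145 TPM in MGT with TMP269 and 813, 589 and 293 in DsRed. DsRed replicate 1 held the most and replicate 3 the least, and the log2 change was −2.32 ± 0.35 (adjusted p = 0.00142). Bst2, tetherin, was at 306, 245 and 353 against 1208, 906 and 675 TPM. Ifit3 averaged 85.4 against 433 TPM and the transcription factor Irf7 29.3 against 120.3 TPM. The summed level was 1390.0 to 1781 TPM in MGT with TMP269 and 2464 to 5003 in DsRed. Antigen presentation genes were lower in 6 of 15, of 17 listed (7 without DsRed replicate 2). B2m averaged 2197 against 3269.6 TPM, with the call ended by quantile normalization, and the class I heavy chains H2-K1 and H2-D1 were not called (adjusted p = 0.593 and 0.0807; H2-D1 0.00267 without DsRed replicate 2, when it was called lower).

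Some mitotic genes were lower in MGT with TMP269. Of 26 listed, 23 passed the filter and 10 were lower (15 without DsRed replicate 2), at a median of −0.86. The count was 7, 7 and 6 without replicate 1, 2 or 3 of MGT with TMP269, and 7 without DsRed replicate 1 or 3. Cdk1, the mitotic kinase, was at 6.14, 5.66 and 4.46 against 23.02, 13.6 and 22.4 TPM, and Top2a, topoisomerase II alpha, averaged 1.37 against 7.73 TPM. Cenpa, the centromeric histone variant, went the other way, at 52.6, 50.3 and 51.5 TPM against 7.96, 6.04 and 7.20, with no overlap (log2 change 2.71 ± 0.14, adjusted p = 1.02e-06). DNA replication genes were lower in 2 of 21, of 24 listed (Rrm1 and Tyms, which make deoxynucleotides), near the 8.06% of all genes. Without DsRed replicate 2 the count was 5, with 15.3% of all genes lower.

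Of 24 p53 targets, cyclins and CDK inhibitors, all above the filter, 4 were lower and 1 higher (10 and 2 without DsRed replicate 2, and 2 higher without DsRed replicate 3). Among all genes 8.06% were lower and 14.7% higher (15.3% and 21.4% without DsRed replicate 2). Cdkn2a, which encodes p16 and p19ARF, was at 109, 92.5 and 91.4 TPM against 239.7, 426 and 282, and its neighbour Cdkn2b averaged 89.8 against 272 TPM. Cdkn1a, the p53 target p21, averaged 1156 against 1149 TPM and was not called (adjusted p = 0.922). The stress-response gene Sesn1 was higher, at 31.4 against 11.2 TPM.

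Metallothioneins, small zinc-binding proteins, rose several-fold. Mt1 was at 1255, 1157 and 1011 TPM in MGT with TMP269 and 162, 297 and 209 in DsRed, and Mt2 at 1426, 1277 and 1169 against 182, 276 and 195. DsRed replicate 2 was the highest control for both and lay well below the treated libraries. The log2 changes were 2.39 ± 0.19 and 2.58 ± 0.16 (adjusted p = 2.34e-05 and 3.62e-06). Reads of this near-identical pair may be split unevenly. Of 8 metallothionein and zinc genes, 7 passed the filter, and the other gene called higher was the zinc transporter Slc30a2, at 2.62 against 0.512 TPM. The zinc exporter Slc30a1 averaged 8.84 against 6.12 TPM and the zinc-sensing factor Mtf1 11.3 against 8.19 TPM, and neither was called (adjusted p = 0.121 and 0.104; Mtf1 was called higher without DsRed replicate 1). The zinc importers Slc39a10 and Slc39a14 were called lower once DsRed replicate 2 was left out.

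Antioxidant and iron genes were higher in 11 of 20, all above the filter, and lower in 2 (12 and 2 without DsRed replicate 2), at a median of 0.85. Nqo1, a quinone reductase, was at 24.8, 25.5 and 25.1 TPM against 6.43, 6.14 and 7.35. Ftl1, ferritin light chain, was at 9765, 9590.2 and 9143 against 2907, 4450.3 and 3785. No treated library overlapped a control in either gene. Gclm, of glutathione synthesis, averaged 314 against 117 TPM, Hmox1, heme oxygenase, 316 against 166 TPM, and the extracellular peroxidase Gpx3 1682 against 405 TPM. Ferritin heavy chain (Fth1) averaged 3017 against 3405 TPM and was not called (adjusted p = 0.395). Transferrin (Trf) fell to 55.8 from 341 TPM, and its receptor Tfrc rose to 16.05 from 5.50.

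Stress and unfolded protein genes gave small counts in both directions, to be read beside the 14.7% of all genes called higher and 8.06% lower. Without DsRed replicate 2 those shares were 21.4% and 15.3%. Of 24 listed, 21 passed the filter, with 3 higher and 3 lower (4 and 7 without DsRed replicate 2, 1 lower without replicate 1 of MGT with TMP269, and 5 higher without DsRed replicate 3). Atf3, a stress-induced factor, averaged 13.9 against 4.34 TPM. Ddit3 averaged 335 against 183 TPM, a call that median-ratio scaling ended, and Herpud1, the third gene called higher, lost its call under every rescaling tried and without any 1 library of MGT with TMP269. Of 34 lysosomal genes, 33 passed the filter, 8 were higher and 5 lower (10 and 8 without DsRed replicate 2). Without any 1 library of MGT with TMP269, 3 were lower. Rragd, a GTPase of the lysosomal nutrient sensor, was at 28.1, 26.8 and 27.5 TPM against 1.81, 1.05 and 3.31, and the glycoprotein Gpnmb averaged 123.3 against 28.9 TPM. The cathepsin Ctss, which macrophages express strongly, averaged 12.5 against 47.6 TPM.

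In energy metabolism, 3 of 29 oxidative phosphorylation genes, of 32 listed, were higher (Cox7a1, Sdhc and Atp5a1), a smaller share than the 14.7% of all genes. Without DsRed replicate 2 there were 13, a larger share than the 21.4% of all genes. Median-ratio scaling left 1, as did leaving out replicate 1 or 2 of MGT with TMP269, and turned their median of 0.12 to −0.12. In fatty acid oxidation 8 of 24, of 26 listed, were higher and 2 lower (9 and 4 without DsRed replicate 2). Fabp3, the heart fatty acid-binding protein, was at 100.02, 92.2 and 92.1 against 11.9, 14.4 and 12.8 TPM, the thiolase Acaa2 averaged 93.0 against 27.9 TPM, and the uncoupling protein Ucp2 fell to 5.17 from 38.2. In glycolysis and glucose use 7 of 23 genes, of 24 listed, were higher and 3 lower (8 and 6 without DsRed replicate 2, and 4 higher without any 1 library of MGT with TMP269). The muscle enolase Eno3 averaged 121 against 26.0 TPM, while the ubiquitous Eno1 averaged 401 against 569 TPM and was lower, except without replicate 2 or 3 of MGT with TMP269. Of 9 creatine, adenylate kinase and myoglobin genes, 6 passed the filter, with 4 lower and 1 higher, also without DsRed replicate 2. Without replicate 1 or 3 of MGT with TMP269, or without DsRed replicate 1, 2 were lower, and without any 1 library of MGT with TMP269 0 were higher. Brain creatine kinase (Ckb) fell to 124 from 227 TPM, and muscle creatine kinase (Ckm) was below the filter at 0.0889, 0.271 and 0.0870 TPM in the treated libraries.

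Among Wnt, Notch and hedgehog genes, 11 of 24 above the filter, of 30 listed, were lower and 3 higher (14 and 3 without DsRed replicate 2). The secreted Wnt inhibitors did not move alike. Sfrp1 was at 5.64, 6.73 and 6.92 TPM against 211, 93.3 and 177, and Wif1 at 40.0, 39.5 and 42.2 against 0.693, 0 and 0.359. Axin2, a common Wnt target, and Lef1, a Wnt effector, were called higher at low levels, with means of 2.60 against 0.551 TPM and 2.31 against 0.370 TPM. Gas1, a hedgehog co-receptor, averaged 5.52 against 42.7 TPM. Of 27 growth factor genes, 25 passed the filter, 12 were lower and 2 higher (14 and 5 without DsRed replicate 2, and 1 higher without replicate 1 or 2 of MGT with TMP269). Igf1 was at 7.33, 4.86 and 9.83 TPM against 78.0, 56.3 and 109, and its binding protein Igfbp3 averaged 20.5 against 289.8 TPM. The receptor Igf1r was called higher, at 58.9 against 31.6 TPM, except without replicate 1 or 2 of MGT with TMP269.

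The MGT libraries place these differences beside what MGT gave without the compound. MGT with TMP269 and MGT share the DsRed controls when each is set against DsRed, so the test used here is the direct one between them. It called 1229 genes (9.29%), 439 higher (3.32%) and 790 lower (5.97%) with the compound, while MGT against DsRed called 1630 (12.3%), 1077 higher (8.14%) and 553 lower (4.18%). Without DsRed replicate 2, which enters this test through the common estimate of the spread, 4054 genes were called, and without replicate 1, 2 or 3 of MGT with TMP269 it was 650, 678 and 691.

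Cardiac sarcomere genes were higher with the compound in 6 of 13 cases and lower in 0 (limma, which found 13 of 13 higher than DsRed). Myh6 was at 71.4, 75.5 and 67.0 TPM in MGT, below every library with the compound (4.58-fold by means, adjusted p = 1.97e-05). Myl4, at 5719.8, 6115 and 5769 TPM in MGT, was not called between them (adjusted p = 0.957). Nppa was at 24.2, 23.5 and 25.1 TPM in MGT, within the range of the DsRed libraries, and the difference from MGT was a log2 change of 3.94 ± 0.76 (adjusted p = 0.0113). Several skeletal genes stood between DsRed and MGT. Myh1 was at 149, 149 and 143 TPM in MGT, against 38.4 with the compound and 1.30 in DsRed (adjusted p = 1.91e-04 against MGT), and 6 of 15 skeletal genes were lower than in MGT with 3 higher.

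Matrix genes were lower than in MGT as well. The counts were 14 of 22 collagens, 18 of 27 elastic fibre and crosslinking genes and 6 of 9 proteoglycans. Col1a2 was at 2189.7, 2111 and 2206 TPM in MGT and at 2214, 1134 and 2335 in DsRed, against 337, 345 and 371 with the compound. Col3a1 was at 803, 667 and 791 TPM, between the other groups. Mt1 was at 210.0, 213 and 230.0 TPM in MGT, within the range of the DsRed libraries. Bex2, a small adaptor protein of the brain-expressed X-linked family, was at 33.1, 26.5 and 23.7 TPM with the compound, 0.314, 1.03 and 0.326 in MGT and 0.167, 0.385 and 0.268 in DsRed (adjusted p = 2.18e-05 against MGT and 1.25e-06 against DsRed). The largest falls against MGT among genes also called lower than DsRed, C1qa, Fcrls, Spp1, C1qb, Lyz2 and C1qc, are all expressed by macrophages, and Spp1, osteopontin, was at 28.8, 33.3 and 35.9 TPM with the compound, 889, 682 and 1545 in MGT and 305, 250.5 and 878 in DsRed.

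Some genes differed from MGT and were not called against DsRed. Mbd1, a methyl-CpG-binding protein, was at 130.3, 118 and 116 TPM with the compound and 131, 78.3 and 153 in DsRed, where the groups overlapped, and at 26.9, 25.3 and 23.3 in MGT (adjusted p = 3.05e-04 against MGT and 0.869 against DsRed). Etfbkmt, a mitochondrial lysine methyltransferase, was at 26.3, 19.1 and 24.1 TPM with the compound, 17.3, 14.5 and 18.8 in DsRed and 5.62, 3.97 and 5.51 in MGT. Tsc22d1, a leucine zipper protein, averaged 326 TPM with the compound, 299 in DsRed and 126 in MGT, the order of groups kept below. Mylk, myosin light chain kinase, averaged 24.7, 17.7 and 8.47 TPM and was called higher than DsRed without DsRed replicate 3. The neuronal endosomal protein Nsg1 and Trmt112-ps2, a pseudogene whose reads may belong to its parent gene, made up the rest of the higher genes. In the other direction Sla, an adaptor of immune receptor signalling, was at 3.14, 2.45 and 4.46 TPM with the compound, 2.71, 1.93 and 3.54 in DsRed and 37.2, 48.5 and 42.4 in MGT. Slpi, a secreted protease inhibitor, averaged 6.30, 5.86 and 66.4 TPM and was called higher than DsRed without DsRed replicate 2. Sprr2a2, of a family of near-identical epidermal genes, averaged 7.28, 4.02 and 84.1. It was called higher than DsRed without DsRed replicate 1 or without replicate 1 of MGT with TMP269. The basement membrane collagen Col15a1 averaged 6.87, 9.25 and 54.5, and the immune receptor Lilrb4a 5.28, 16.2 and 36.3. Both were called lower than DsRed without DsRed replicate 2. Bdh2, a cytosolic dehydrogenase, averaged 4.54, 7.80 and 25.8 TPM. A p that misses the threshold does not show that a level was that of DsRed.

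**Figure D5:**
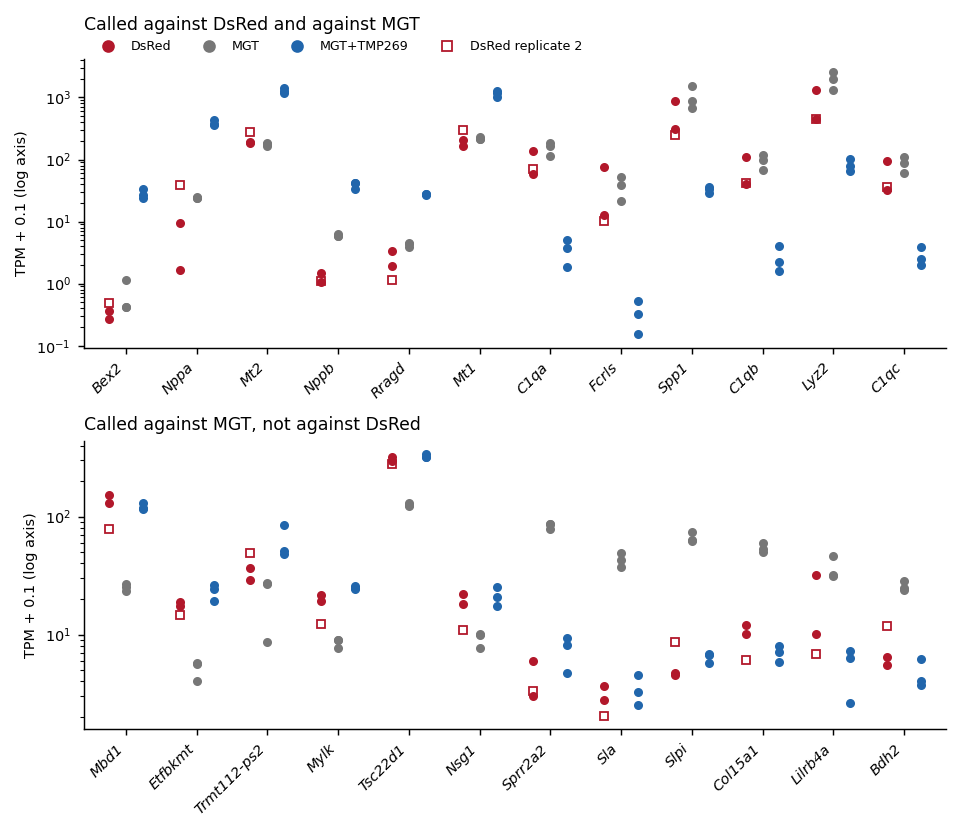
TPM + 0.1 on a log axis in each of the 9 libraries, for 12 genes called against both DsRed and MGT (top) and 12 called against MGT but not against DsRed (bottom). Colours and the open square are as in the plot of the largest changes. In the lower panel MGT (grey) stands apart from MGT with TMP269 because the genes were chosen by that difference. It also stands apart from DsRed, except that DsRed replicate 3 lies within the MGT values of Lilrb4a.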

How the data were processed

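RNA sequencing libraries were made with a directional kit from total RNA, per the labels' protocols. Expression was deposited by the authors in a single table, in TPM, with 1 value per gene symbol and library. The submitters' processing notes name kallisto, DESeq2 and mm9, while their versions, roles, annotation and strand setting were not given in what was used here. Without a known strand setting, antisense partners are uncertain. Of 34804 lines, 25 named by a date (0.123% to 0.176% of a library's TPM) were left out. Totals ran from 988020 to 988999 TPM. TPM keeps no depth, so no counting interval is given, and since a library's total is fixed, genes that rise strongly take share from the rest.

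Genes with a mean of at least 1 TPM over 9 libraries (13228 of 34779) were fitted as log2(TPM + 1) with limma 3.58.1 in R 4.3.3. The model had the group as its only term and a variance trend, and tests were two-sided. Log2 changes (± SE) understate low genes. The script was tested on simulated data. Transcript lengths came from GENCODE M21 (GRCm38), found by symbol for 13057 tested genes (98.7%), and promoters from RefSeq. Coordinates of the promoters are on GRCm38.p6, which is not the submitters' build.

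Named genes are the 12 largest rises and falls called with and without DsRed replicate 2, without overlap and at 20 TPM or more in the higher group. Predicted genes and the delivered factors were left out. To these come the 6 largest differences from MGT each way, among genes called against DsRed and among genes not called, up to 4 genes per list by adjusted p with further members as needed, and the class IIa deacetylases. A count of members carries the number that passed the filter, which a gene high in 1 group can pass by that group alone. Members and lists were chosen with earlier results of these data known. Ctgf, Nov, Wisp1, Wisp2 and Gm34302 are the table's symbols for Ccn2, Ccn3, Ccn4, Ccn5 and Strit1; 16 listed genes were not analysed here. Some genes that the naming rule selects are not reported here.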

Additional observations from a re-analysis of the deposited data

How the results depend on the processing

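Of 191 named genes 167 were called against DsRed; of these 0 changed direction under any setting tried, and between 0 and 9 lost their call under a given one. Hdac7, Mbd1, Sla, Slpi, Tsc22d1, Ywhae and Ywhah, which were not called, had changes on either side of 0 across settings. The number of genes called against DsRed (3016) was 1789 when the 6 compared libraries were fitted alone, with 1059 higher, and 1865 to 4848 when 1 library was left out, with 1108 to 2826 higher and 728 to 2022 lower. The 1066 lower genes became 1741 after median-ratio scaling, 1706 after quantile normalization, 1803 with array weights and 1898 after removal of the length trend. Array weights gave DsRed replicate 2 a weight of 0.050. Against MGT (1229 genes) array weights gave 4818, with 3045 higher and 1773 lower, quantile normalization 757 higher, and removal of the length trend 1194 lower. Leaving out 1 library gave 650 to 4054, with 172 to 2558 higher and 478 to 1496 lower. A pseudocount of 0.1, no filter and a filter at 5 TPM moved none of these counts by over 1.5 times. Apart from the smaller set of libraries in some of these fits, the cause was not tested.

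Same-numbered libraries of MGT with TMP269 and DsRed did not deviate together (correlations across genes of −0.043, −0.070 and 0.010). These values gave no sign of pairing by number, and cannot exclude it, since DsRed replicate 2 was unlike the rest of its group. With the replicate number as a block 2679 genes were called against DsRed, 1683 higher and 996 lower, and against MGT 276 were higher.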

Other observations

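Several genes differed widely between the groups at levels below the filter on mean TPM and were not tested. Hcn4, a pacemaker channel, was at 2.20, 2.26 and 2.84 TPM in the 3 libraries of MGT with TMP269, at 0.0774, 0.0223 and 0.0628 in DsRed and at 0.205, 0.291 and 0.199 in MGT. Slc2a4, the insulin-responsive glucose transporter GLUT4, was at 1.73, 2.46 and 2.01 TPM in MGT with TMP269, and DsRed replicate 2 was listed at 0 with replicates 1 and 3 at 0.0492 and 0.0400. Nxf3, of the nuclear RNA export factor family, was at 2.28, 2.52 and 2.07 TPM against 0.124, 0.119 and 0.134. In the other direction Cacng8, an auxiliary subunit of glutamate receptors, was listed at 0 in 2 libraries of MGT with TMP269 and stood at 2.28, 3.20 and 1.42 TPM in DsRed. Nxph3, a neurexophilin, averaged 0.351 against 2.27 TPM.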
